A study of Homo sapiens with 6 samples.

Results

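The genes described here are 42 components of the transforming growth factor beta (TGF-beta) and bone morphogenetic protein (BMP) pathways, chosen by name from the 26334 gene symbols counted in MiaPaCa2 clones, MiaPaCa2 being a human pancreatic ductal adenocarcinoma line. All 42 symbols were present in the count table, and 32 of them had enough counts to be tested. They comprise 8 secreted ligands, 4 latency proteins or activators, 4 extracellular antagonists, 9 receptors including a pseudoreceptor, 5 receptor-regulated or common SMADs, 4 inhibitory SMADs and SMURF ligases, 3 nuclear corepressors and 5 transcriptional targets. Wild-type clones (WT, 3 libraries) were set against clones carrying a CRISPR-Cas9 deletion of ZEB1 (ZEB1-KO, 3 libraries), a transcription factor that represses epithelial genes. Both groups were electroporated with a plasmid that encodes Cas9 and GFP, which in the ZEB1-KO group also carried a ZEB1 guide, and GFP-positive cells of both were sorted to derive the clones, which were grown in medium with 10% serum. Each library is 1 clone, so that a difference between groups includes differences between clones. The SMART-Seq2 libraries came from small numbers of cells, and the method reads polyadenylated RNA without recording its strand.

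In this pathway, a ligand dimer is released from its latent complex or escapes extracellular antagonists, and assembles a receptor pair in which a type II kinase activates a type I kinase. TGF-beta and activin receptors phosphorylate SMAD2 and SMAD3, BMP receptors phosphorylate SMAD1 and SMAD5, and both kinds of SMAD enter the nucleus with the shared partner SMAD4. Inhibitory SMADs, SMURF ubiquitin ligases and the corepressors SKI, SKIL and TGIF1 dampen the signal, several of them as targets of the signal itself. TGF-beta is a classical inducer of the epithelial-mesenchymal transition, and pancreatic cancers often carry lesions in this pathway.

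The libraries held between 18909305 and 42876693 counts, and a floor of 3 counts corresponded to 0.0687 to 0.1497 CPM (CPM is a TMM-scaled count relative to library size). Floors and count intervals cover counting error only, because amplified reads carry no molecular identifiers. ZEB1 itself had 1486, 1011 and 830 counts in WT replicates 1, 2 and 3 and 67, 140 and 369 counts in ZEB1-KO replicates 1, 2 and 3, a log2 fold change of -2.43 (SE 0.49, adjusted p = 0.0930 from edgeR's quasi-likelihood test). Transcript was thus still counted in each ZEB1-KO library, most in replicate 3. For ZEB1 the adjusted p was 3.28e-05 with DESeq2 and 0.000391 in the authors' deposited table, from a likelihood ratio test. Of the identity markers, KRT8, KRT18, KRT19, SOX9 and VIM were detected in every library. KRT7, a keratin of the same list, had 25, 4 and 0 counts in WT clones against 0, 4 and 17 counts in ZEB1-KO clones. The epithelial markers CDH1 and EPCAM had at most 4 and 2 counts in any library. CDKN2A, which this cell line is known to lack, had 0 counts in each library. Marker genes of acinar and islet cells summed to at most 0.200 CPM in any library, those of endothelial cells to at most 3.14 CPM, those of blood cells to at most 11.7 CPM and those of fibroblasts to at most 60.8 CPM. The fibroblast genes DCN, LUM and FAP and the blood genes CD3E and HBB had 0 counts in all libraries. The highest fibroblast sum came from COL3A1, at 59.7 CPM in ZEB1-KO replicate 1, and the highest blood sum from CD14, at 11.2 CPM in WT replicate 1. These sums cover the listed markers only. The collagen gene COL1A2, outside the fibroblast list, had 129.3 to 435.5 CPM in WT clones and 0.321 to 3.24 CPM in ZEB1-KO clones.

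No gene of the 32 tested passed an adjusted p of 0.05 with edgeR's quasi-likelihood test, which called 0.176% of all 13659 tested genes. ZEB1, the deleted gene, did not pass this test either (adjusted p = 0.0930). A member that misses the threshold is therefore not shown to be unchanged. The lowest adjusted p among the members was 0.0826, for SKIL. At an unadjusted p below 0.05 there were 7 members, or 21.9%, against 17.7% of all tested genes. Of these, 5 were higher in ZEB1-KO clones, where 9.64% of all genes were, and 2 were lower, where 8.04% of all genes were. The 3 WT and 3 ZEB1-KO values did not overlap for 7 of the 32 (21.9%), against 23.6% of all tested genes, and 6 of these lay higher and 1 lower in ZEB1-KO clones, against 11.9% and 11.7% of all genes. In total the shares for the members were near those of the whole table, while by direction they were 15.6% higher and 6.25% lower at the unadjusted p and 18.8% higher without overlap. The median log2 fold change of the members was 0.03 with 16 above 0 and 16 below, against a median of -0.01 for all tested genes. By role, 3 of 8 receptors, 1 of 5 signal-carrying SMADs and 3 of 5 targets lay above 0, with medians of -0.20, -0.09 and 0.44. Leaving out 1 library at a time moved these medians to between -0.37 and -0.02 for receptors (without ZEB1-KO replicate 3 and WT replicate 2), -0.26 and 0.01 for SMADs (without ZEB1-KO replicates 3 and 1) and 0.12 and 0.69 for targets (without ZEB1-KO replicate 2 and WT replicate 2). The SMAD median was 0.05 when counts were scaled by library size alone, which moved the median of all genes to 0.14, and the receptor median was 0.06 on the log2(TPM + 1) scale, where that of all genes was 0.23. The plot of fitted differences shows that the members furthest from 0 were BAMBI and TGFBR3 on the lower side and SMAD7, LTBP1 and SKIL on the higher side.

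**Figure D1:**
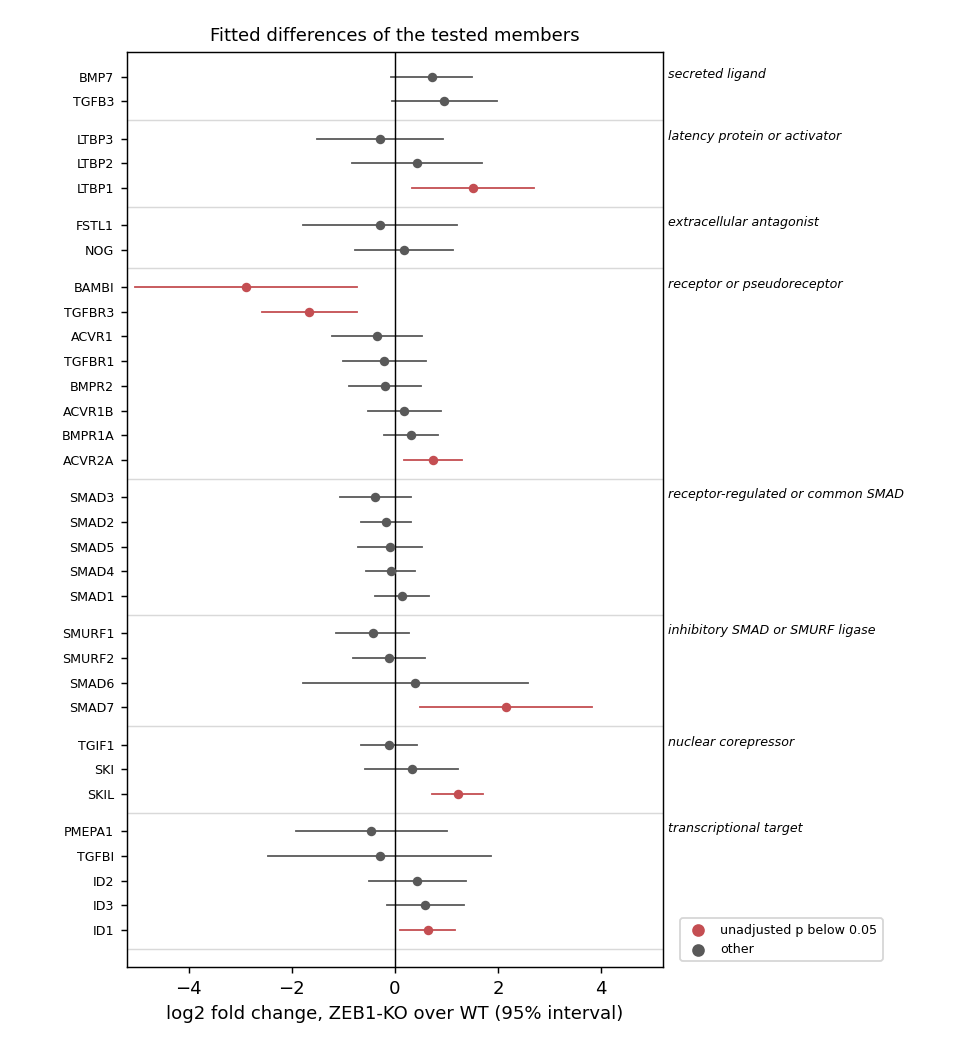
Log2 fold change of each tested member, ZEB1-KO over WT (x axis), ordered by role (y axis). Points are estimates from edgeR's quasi-likelihood fit to 3 clones per group, bars are 95% intervals of each gene alone, and red marks an unadjusted p below 0.05. The 7 red members run from -2.89 for BAMBI to 2.16 for SMAD7, and the intervals of the other 25 include 0.

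Other tests drew the line elsewhere. The authors' deposited table, from a likelihood ratio test, lists 29 of the members and has 2 of them (6.90%) at an adjusted p below 0.05, SKIL and TGFBR3, against 4.75% of all its genes. DESeq2 likewise called SKIL higher and TGFBR3 lower, which is 6.45% of the 31 members with an adjusted p, against 7.12% of all genes. The likelihood ratio test run here called these and BAMBI, or 3 members, and the exact test of edgeR called the same 3, where the tests called 4.52% and 4.14% of all genes. SKIL alone was called by the quasi-likelihood test without a filter on low counts (0.667% of all genes) and by limma on the logarithm of TPM plus 1 (1.03%) or plus 0.1 (0.956%).

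The DNA before the start of SKIL, TGFBR3 and BAMBI, the members that at least 1 of these tests called, is printed here because ZEB1 binds DNA at E-boxes. The windows are the 250 bases before the RefSeq start in GRCh38.p14, printed in the direction of the gene. They lie at chr3:170357465-170357714 on the plus strand for SKIL, chr1:91886152-91886401 on the minus strand for TGFBR3 and chr10:28677271-28677520 on the plus strand for BAMBI. The SKIL and BAMBI windows overlapped no RefSeq gene, and the TGFBR3 window lies within the annotated TGFBR3 gene, which has an earlier start. Capitals mark CAGAC or its reverse complement GTCTG, a SMAD-binding box, and GGCGCC, a core found in BMP response elements.
SKIL: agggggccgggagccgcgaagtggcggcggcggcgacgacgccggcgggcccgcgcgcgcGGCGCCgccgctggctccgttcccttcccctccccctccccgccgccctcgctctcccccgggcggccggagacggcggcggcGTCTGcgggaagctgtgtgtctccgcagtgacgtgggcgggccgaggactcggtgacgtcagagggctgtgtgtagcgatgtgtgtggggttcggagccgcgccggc
TGFBR3: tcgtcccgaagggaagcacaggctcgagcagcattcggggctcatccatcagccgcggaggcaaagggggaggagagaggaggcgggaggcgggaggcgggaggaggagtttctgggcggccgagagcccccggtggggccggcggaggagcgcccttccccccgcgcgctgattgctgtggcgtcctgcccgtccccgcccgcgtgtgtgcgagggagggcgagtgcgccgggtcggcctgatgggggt
BAMBI: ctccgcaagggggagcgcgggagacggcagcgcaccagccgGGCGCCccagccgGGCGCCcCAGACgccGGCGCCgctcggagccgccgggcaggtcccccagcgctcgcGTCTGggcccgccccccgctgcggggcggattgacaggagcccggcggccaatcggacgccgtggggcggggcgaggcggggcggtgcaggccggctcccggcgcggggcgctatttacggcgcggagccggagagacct
The SKIL window held 1 match to each of these motifs, the BAMBI window held 2 matches to the SMAD box and 3 to GGCGCC, and the TGFBR3 window held neither. None of the 3 windows held the ZEB1 E-box in the form searched here, CAGGTG or its reverse complement CACCTG. Shorter forms were not searched, and the BAMBI window contains CAGGT followed by C. Among the 38 members with a window in the RefSeq table, searched on both strands, CAGGTG was found before LTBP3, FST and SMURF2, or 7.89%, against 17.5% of all 27305 promoters. The SMAD box was found before 39.5% of the members and 37.8% of all promoters, and GGCGCC before 39.5% of the members and 16.1% of all promoters. The share of G and C in the printed windows was 78.4% for SKIL, 73.6% for TGFBR3 and 81.2% for BAMBI, and the part of base composition in the share with GGCGCC was not tested. A match describes the letters and is not evidence of binding.

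Among the secreted ligands, BMP7 was the only member above 2 CPM. BMP7, a ligand of the BMP branch, had 13.0, 5.24 and 7.86 CPM in WT replicates 1, 2 and 3 and 14.2, 15.2 and 13.4 CPM in ZEB1-KO replicates 1, 2 and 3. The 3 ZEB1-KO clones lay close together and above each WT clone, with WT replicate 1 only just below them. The fitted difference was 0.71 on the log2 scale (SE 0.35, adjusted p = 0.321). It was 1.14 without WT replicate 1 and 0.46 without WT replicate 2.

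The TGF-beta ligands themselves were scarce in all clones. TGFB3 had 21, 17 and 19 counts in WT clones against 27, 58 and 21 counts in ZEB1-KO clones, equal to 0.481 to 0.770 CPM and 0.654 to 1.43 CPM. These ranges overlap, and the log2 fold change of 0.96 had an adjusted p of 0.305. TGFB1, the most studied ligand of the family, had 10, 2 and 9 counts in WT clones against 4, 2 and 3 counts in ZEB1-KO clones. TGFB2 had 2, 0 and 0 counts in WT clones against 4, 7 and 2 counts in ZEB1-KO clones, and on the CPM scale each ZEB1-KO value lay above each WT value at levels near the floor. An antisense symbol, TGFB2-AS1, had up to 7 counts, and unstranded reads of overlapping genes cannot be told apart. The activin and inhibin chains INHBA and INHBB had at most 2 and 11 counts. The antisense symbol INHBA-AS1 had 31, 24 and 13 counts in WT clones against 13, 21 and 3 counts in ZEB1-KO clones. BMP2 and BMP4 had 0 counts in all 6 libraries, which allows up to 3 counts in each. These 6 ligands were too low to be tested.

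Proteins that hold TGF-beta latent or release it were mostly at low levels. LTBP1, which tethers latent TGF-beta to the matrix, had 0.802, 0.370 and 1.38 CPM in WT clones against 2.15, 1.85 and 3.27 CPM in ZEB1-KO clones. Every ZEB1-KO value lay above every WT value, on 12 to 105 counts per library. On the log2 scale the difference was 1.52 (SE 0.52, adjusted p = 0.185), 1.18 without WT replicate 2 and 2.03 without WT replicate 3. LTBP2, a related matrix protein, ranged from 4.90 to 15.4 CPM in WT clones and from 5.57 to 21.7 CPM in ZEB1-KO clones, and LTBP3, which also binds latent TGF-beta, from 0.648 to 1.58 CPM and from 0.529 to 1.61 CPM. The groups overlap for both. THBS1, which encodes thrombospondin-1, an activator of latent TGF-beta, had 4, 7 and 2 counts in WT clones and 0 in each ZEB1-KO clone, which was too low to be tested and close to the floor of 3 counts.

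Of the extracellular antagonists, NOG was abundant. It encodes noggin, which binds BMPs and keeps them from their receptors, and had 98.6, 77.7 and 64.4 CPM in WT clones against 40.6, 145.8 and 85.9 CPM in ZEB1-KO clones. ZEB1-KO replicate 1 was the lowest library and ZEB1-KO replicate 2 the highest, so that the WT values lie within the ZEB1-KO range. The log2 fold change of 0.18 had a 95% interval of -0.78 to 1.13, so that differences of up to 2.19-fold higher are within its error, and it was -0.34 without ZEB1-KO replicate 2. FSTL1, a follistatin-like secreted protein, ranged from 2.22 to 19.9 CPM in WT clones and from 6.04 to 11.1 CPM in ZEB1-KO clones. FST, the activin antagonist follistatin, had 13 counts in ZEB1-KO replicate 2 and at most 1 elsewhere. GREM1, the BMP antagonist gremlin-1, had 1 count in all libraries together.

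**Figure D2:**
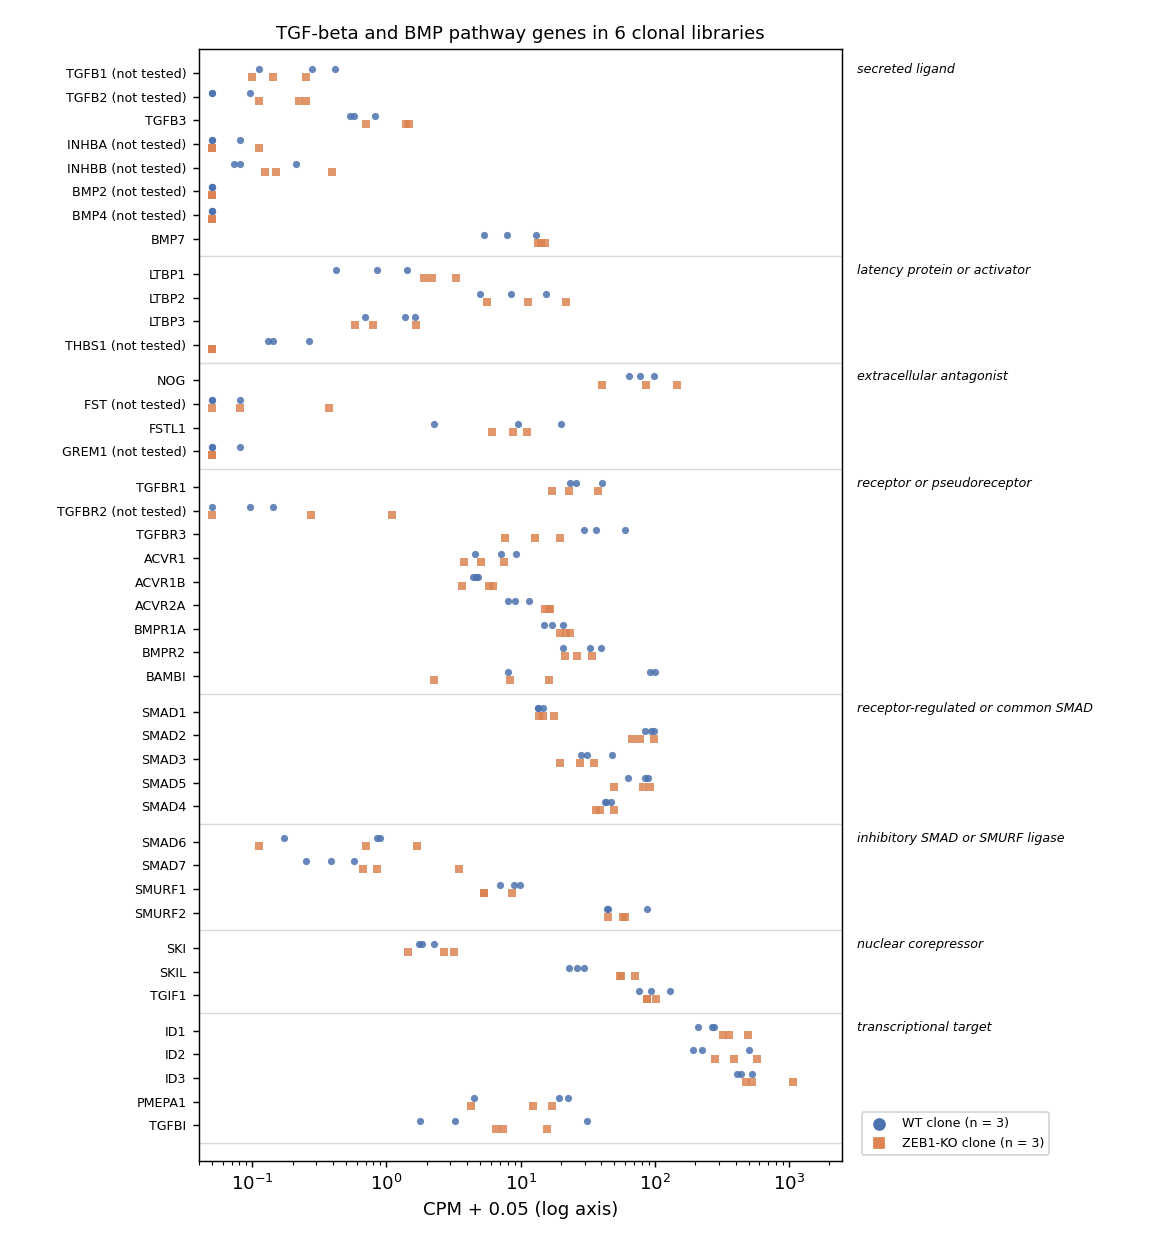
CPM plus 0.05 of each member (x axis, log scale) in 3 WT clones (circles) and 3 ZEB1-KO clones (squares), by role (y axis), with members too low to be tested named as such. BMP2 and BMP4 lie at the left edge in all clones, and TGFB2, INHBA, FST, GREM1 and TGFBR2 lie at or near it in WT clones. ID1, ID2 and ID3 lie at the right. Among tested members the groups do not overlap for TGFBR3, lower in ZEB1-KO clones, and for BMP7, LTBP1, ACVR2A, SMAD7, SKIL and ID1, higher.

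The receptors were unevenly expressed. TGFBR2, the type II receptor that binds TGF-beta, had 2, 3 and 0 counts in WT clones against 0, 9 and 34 counts in ZEB1-KO clones. It was too low to be tested, and its highest level was 1.06 CPM in ZEB1-KO replicate 3, the clone with the most remaining ZEB1 counts. Its type I partner TGFBR1 was present throughout, at 23.3 to 40.4 CPM in WT clones against 17.0 to 37.9 CPM in ZEB1-KO clones, with a log2 fold change of -0.20 (95% interval -1.01 to 0.60).

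TGFBR3, or betaglycan, a coreceptor that presents TGF-beta and inhibin to the signalling receptors, had 1302, 1940 and 902 counts in WT clones against 153, 515 and 630 counts in ZEB1-KO clones. This corresponds to 29.8, 59.8 and 36.5 CPM and to 7.63, 12.7 and 19.6 CPM. Every ZEB1-KO value lay below every WT value, with a mean of 42.1 CPM ± 15.8 in WT clones against 13.3 CPM ± 6.01 in ZEB1-KO clones (both with SD and n = 3). The fitted log2 fold change was -1.66 (SE 0.40), a 3.15-fold difference, with an adjusted p of 0.113 from the quasi-likelihood test and of 0.00321 from DESeq2. In the authors' deposited table TGFBR3 stood at -1.67 on the log2 scale, its adjusted p being 0.00847. Leaving out 1 library at a time gave log2 fold changes from -2.04 to -1.30, with quasi-likelihood adjusted p-values from 0.0913 to 0.296. The smallest p that exact permutation of 3 against 3 clones allows for a single gene is 0.1.

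BAMBI, a pseudoreceptor without a kinase domain that blocks receptor signalling, varied most among the receptors. It had 7.95, 91.9 and 99.6 CPM in WT clones against 2.20, 16.2 and 8.34 CPM in ZEB1-KO clones. WT replicate 1 lay within the ZEB1-KO range, and the other two WT clones lay far above it. The fitted difference was -2.89 on the log2 scale (SE 0.94, adjusted p = 0.174 from the quasi-likelihood test). Without WT replicate 1 it was -3.39 with an adjusted p of 0.0969, the lowest when 1 library was left out. The highest of these adjusted p-values was 0.391, without WT replicate 3, where the difference was -2.47. The unadjusted p was 0.0147 in the quasi-likelihood test, 0.0525 under its robust estimation and 0.0590 with limma-voom. BAMBI is a chromosome 10 gene, on the same arm as ZEB1. The nearest tested genes, 10 on each side of BAMBI and ZEB1 itself among them, were at -0.37 in the median on the log2 scale, 17 of 20 being below 0. All 102 tested genes other than BAMBI on the side of ZEB1 where BAMBI lies, which include 16 of these 20, had a median of -0.41 with 77.5% below 0, against -0.01 and 50.4% for the remaining tested genes. The part of this regional difference in the BAMBI value was not tested.

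ACVR2A, a type II receptor for activins that also serves BMPs, had 11.5, 8.98 and 7.98 CPM in WT clones against 16.2, 15.1 and 16.4 CPM in ZEB1-KO clones. The groups did not overlap and the ZEB1-KO clones were close to each other. The fitted difference was 0.75 on the log2 scale (SE 0.24, adjusted p = 0.175), and it stayed between 0.64 and 0.92 when any 1 library was left out. The remaining kinases showed overlapping groups. The BMP receptors BMPR1A and BMPR2 had 14.99 to 20.6 and 20.7 to 39.9 CPM in WT, and 19.7 to 23.4 and 21.5 to 34.2 CPM in ZEB1-KO clones. The type I receptors ACVR1 and ACVR1B had 4.51 to 9.16 and 4.33 to 4.78 CPM in WT, and 3.75 to 7.502 and 3.61 to 6.19 CPM in ZEB1-KO clones. Log2 fold changes of these 4 receptors lay between -0.35 and 0.30.

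The SMADs that carry the signal were expressed in each clone, at levels from 13.5 CPM for SMAD1 to 98.9 CPM for SMAD2. SMAD2 and SMAD3, the effectors of TGF-beta and activin, had means of 92.0 CPM ± 6.83 and 35.9 CPM ± 10.5 in WT clones and of 81.3 CPM ± 15.9 and 27.5 CPM ± 7.75 in ZEB1-KO clones (both with SD and n = 3). SMAD1 and SMAD5, the effectors of BMPs, had 13.9 CPM ± 0.630 and 78.8 CPM ± 13.4 in WT clones against 15.3 CPM ± 2.06 and 74.1 CPM ± 21.8 in ZEB1-KO clones. SMAD4, the common partner and a frequently lost tumour suppressor in pancreatic cancer, had 43.0, 42.4 and 46.9 CPM in WT clones against 36.6, 38.9 and 49.6 CPM in ZEB1-KO clones. Groups overlapped for all 5 of these genes. SMAD4 had the narrowest 95% interval, from -0.55 to 0.39 on the log2 scale, and SMAD3 the lowest bound of the 5, at -1.07. SMAD1 and SMAD5 have antisense symbols in the table, of which SMAD5-AS1 had 9 to 24 counts per library.

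Inhibitory SMADs were at low levels, and some of their libraries were near the floor of 3 counts. SMAD7, which blocks type I receptors and is itself induced by TGF-beta, had 23, 11 and 5 counts in WT clones against 16, 139 and 20 counts in ZEB1-KO clones. On the CPM scale the levels were 0.527, 0.339 and 0.203 in WT clones against 0.798, 3.43 and 0.623 in ZEB1-KO clones, so that the groups did not overlap but 1 clone stood far above the others. The log2 fold change of 2.16 (SE 0.73, adjusted p = 0.183) became 0.94 without ZEB1-KO replicate 2. SMAD6, which acts mainly on BMP signals, had 37, 26 and 3 counts in WT clones against 13, 66 and 2 counts in ZEB1-KO clones and was lowest in replicate 3 of both groups. The ubiquitin ligases SMURF1 and SMURF2, which mark SMADs and receptors for degradation, had log2 fold changes of -0.43 and -0.11 with overlapping groups.

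Of the 3 nuclear corepressors, SKIL was the one whose groups did not overlap. SKIL, or SnoN, binds SMAD complexes at target genes and is induced by TGF-beta as a feedback repressor. It had 1005, 960 and 647 counts in WT clones against 1125, 2902 and 1780 counts in ZEB1-KO clones, equal to 23.0, 29.6 and 26.2 CPM and to 56.1, 71.7 and 55.4 CPM. The lowest ZEB1-KO value was well above the highest WT value, and the means were 26.3 CPM ± 3.30 and 61.1 CPM ± 9.19 (SD, n = 3 each). The log2 fold change was 1.22 (SE 0.22), a 2.32-fold difference with a 95% interval of 1.65 to 3.27-fold. Its adjusted p was 0.0826 from the quasi-likelihood test, 0.000255 from DESeq2 and 0.00317 in the authors' deposited table. Across all 20 alternative settings its log2 fold change stayed between 1.08 and 1.47, with adjusted p-values between 0.000255 and 0.277. SKI, its close relative, had 1.79, 2.22 and 1.70 CPM in WT clones against 3.14, 2.64 and 1.40 CPM in ZEB1-KO clones, and TGIF1, a homeodomain corepressor, ranged from 75.6 to 129.5 CPM and from 87.0 to 101.4 CPM. Groups overlapped for both.

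**Figure D3:**
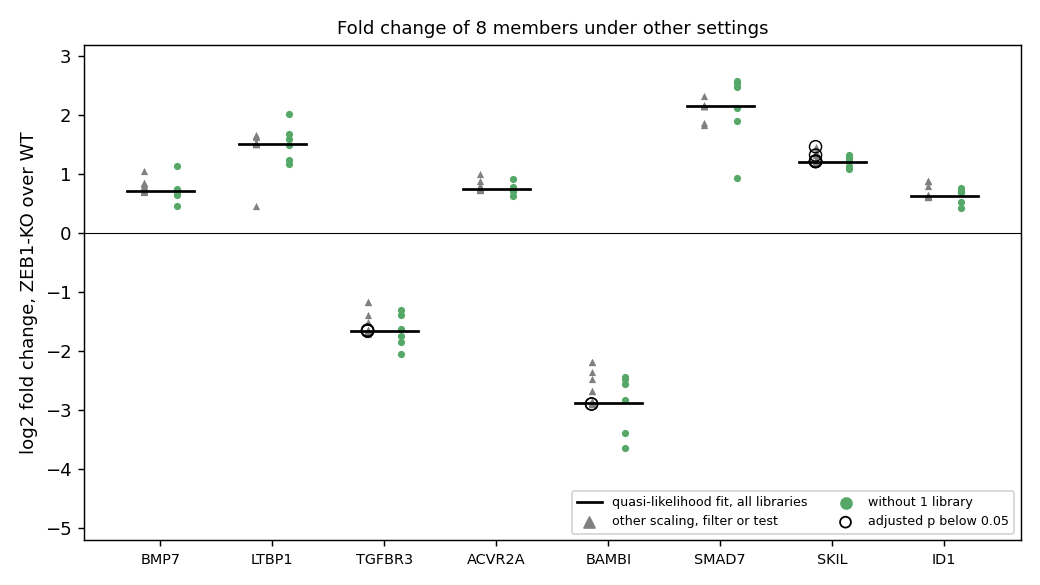
Log2 fold change, ZEB1-KO over WT (y axis), of the 8 members described with full values (x axis): the quasi-likelihood fit to all libraries (line), other scalings, filters and tests (triangles) and fits without 1 library (dots), with open circles at an adjusted p below 0.05. Each gene stays on its side of 0. ID1 is lowest at 0.43, without ZEB1-KO replicate 2, and BMP7 at 0.46, without WT replicate 2. LTBP1, which lay below 1 TPM in every library, is lowest at 0.47, on the log2(TPM + 1) scale. Its lowest value among the fits without 1 library is 1.18. SMAD7 is lowest at 0.94, without ZEB1-KO replicate 2.

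The target genes of the BMP branch were by far the most abundant members per transcript length. ID3, ID1 and ID2, which encode inhibitors of basic helix-loop-helix factors and are direct targets of BMP SMADs, had means of 520.5, 288.3 and 309.5 TPM in WT clones against 972.6, 550.0 and 529.0 TPM in ZEB1-KO clones in the authors' deposited TPM table. The next members by their mean over all libraries were NOG, at 60.5 TPM ± 17.7 in WT clones against 84.1 TPM ± 54.2 in ZEB1-KO clones (both with SD and n = 3), and TGIF1, at 34.0 and 38.2 TPM. SMAD5 and SMAD2 had 15.7 and 12.0 TPM in WT clones, above TGFBR1 at 6.44, BMPR2 at 3.59 and BMP7 at 3.14 TPM, while LTBP1 had 0.192 TPM. These TPM values are higher in ZEB1-KO clones for the median gene of the table, by 0.20 on the scale of log2(TPM + 1), so differences between groups were taken from the counts.

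**Figure D4:**
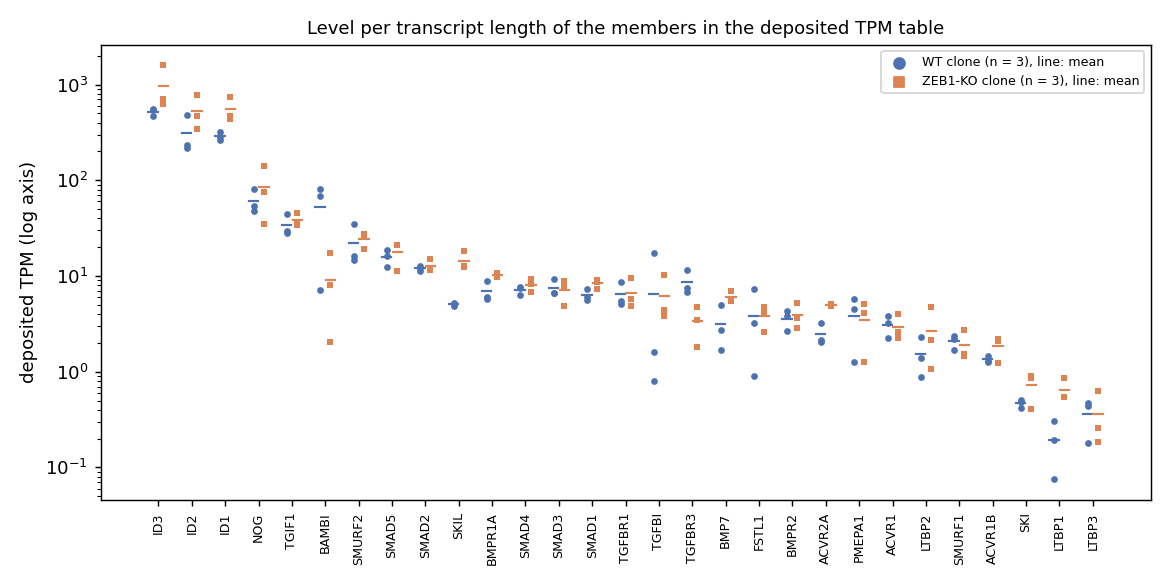
Deposited TPM (y axis, log scale) of the 29 members in that table (x axis), for 3 WT clones (circles) and 3 ZEB1-KO clones (squares), with lines at the means. ID3, ID2 and ID1 lie above NOG and TGIF1, and LTBP1 and LTBP3 lie lowest.

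ID1 was the only one of these 3 targets whose groups did not overlap. Its levels were 211.4, 268.9 and 278.2 CPM in WT clones against 359.3, 497.3 and 321.4 CPM in ZEB1-KO clones. The fitted difference was 0.64 on the log2 scale (SE 0.23, adjusted p = 0.214), and it was 0.43 without ZEB1-KO replicate 2. ID3 had 436.6, 527.3 and 410.4 CPM in WT clones against 476.1, 1066 and 528.2 CPM in ZEB1-KO clones, and ID2 had 191.0, 505.5 and 225.2 CPM in WT clones against 389.7, 578.4 and 280.8 CPM in ZEB1-KO clones. ZEB1-KO replicate 2 had the highest value of all 3 genes, and WT replicate 2 lay within the ZEB1-KO range for ID2 and ID3. ZEB1-KO replicate 2 was the highest of its group for 16 of the 32 tested members (50.0%), against 36.9% of all tested genes. ID2-AS1, an antisense symbol, had 74 to 188 counts per library against 5559 to 23416 for ID2.

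The 2 other genes of the target group, PMEPA1 and TGFBI, had overlapping groups and log2 fold changes of -0.46 and -0.30. PMEPA1, a membrane protein that limits TGF-beta signalling, had 4.47, 19.3 and 22.6 CPM in WT clones against 4.24, 12.3 and 17.0 CPM in ZEB1-KO clones, and replicate 1 was lowest in both groups. TGFBI, a secreted matrix protein named for its induction by TGF-beta, had 31.2, 1.73 and 3.2 CPM in WT clones against 6.54, 15.5 and 7.38 CPM in ZEB1-KO clones. WT replicate 1 was the highest library and the other two WT clones the lowest, so that the WT clones span the ZEB1-KO range, and the 95% interval ran from -2.45 to 1.86. The sign of the TGFBI difference turned without WT replicate 1, to 2.02 (adjusted p = 0.140 from the quasi-likelihood test), and it was also above 0 with limma-voom (0.63), in the fit blocked on replicate number (0.80) and on the TPM scales (0.58 to 0.92).

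A further 125 genes of these pathways were examined for context, a list chosen with earlier results of these data known. The shares below describe that list and are not independent evidence. Of these genes, 73 could be tested. In the quasi-likelihood test 0 of them passed an adjusted p of 0.05 as higher and 1 as lower, while 12 were higher and 7 lower at an unadjusted p below 0.05, or 26.0% together, against 17.7% of all tested genes. Their median log2 fold change was 0.22. The gene that fell was COL1A2, a collagen chain inducible by TGF-beta, from 129.3, 435.5 and 245.7 CPM in WT to 3.24, 0.321 and 1.43 CPM in ZEB1-KO clones. Its log2 fold change of -7.40 (SE 0.89, adjusted p = 0.0271) lost the call without WT replicate 2 at an adjusted p of 0.0568, and likewise without the third WT clone at 0.129 or without the first or the third ZEB1-KO clone at 0.0589 and 0.0781, and with all libraries under robust estimation at 0.0678 or with the replicate block at 0.0698. Among 22 tested TGF-beta target genes outside the 42, 17 lay above 0 on the log2 scale (median 0.69), and 6 were higher and 1 lower at an unadjusted p below 0.05, where 9.64% and 8.04% of all tested genes were and 6753 of 13659 lay above 0.

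Of the further pathway genes that lay higher in ZEB1-KO clones, JUNB, IER3 and BMP1 were among those with the smallest p-values, and none of these passed the adjusted threshold of the quasi-likelihood test with all libraries, while DESeq2, the exact test, the likelihood ratio test and the fit without a filter called all 3. JUNB, an AP-1 transcription factor, had 3.55, 3.70 and 3.36 CPM in WT clones against 11.3, 20.8 and 9.93 CPM in ZEB1-KO clones (log2 fold change 1.98, adjusted p = 0.0761). IER3, an early response gene, had 2.95, 7.40 and 4.46 CPM against 22.7, 43.4 and 18.7 CPM (2.52, adjusted p = 0.0834). BMP1, a metalloprotease that cleaves procollagens and the BMP antagonist chordin, had 1.37, 1.203 and 1.58 CPM against 7.73, 13.4 and 3.74 CPM (2.58, adjusted p = 0.0885), and its adjusted p was 0.0461 without ZEB1-KO replicate 3. In these 3 genes each ZEB1-KO clone lay above each WT clone, with ZEB1-KO replicate 2 the highest.

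On the lower side, RGMB, a coreceptor for BMPs, had 27.4, 24.4 and 23.5 CPM in WT clones against 8.63, 9.09 and 6.79 CPM in ZEB1-KO clones. The groups lay far apart relative to their spread, with a log2 fold change of -1.62 (SE 0.24) and an adjusted p of 0.0544 from the quasi-likelihood test. Its adjusted p was 0.0408 with robust quasi-likelihood estimation, 5.42e-07 with DESeq2 and 0.000158 in the authors' deposited table. An antisense symbol, RGMB-AS1, is also in the table. MSX2, a homeobox target of BMP signals, had 5.82, 56.9 and 10.0 CPM against 1.10, 2.49 and 3.80 CPM. WT replicate 2 lay far above the other two WT clones, and the log2 fold change of -3.28 (quasi-likelihood adjusted p = 0.1252) was -1.65 without it. With all libraries the adjusted p of MSX2 was 0.0303 with DESeq2 and 0.0251 in the authors' deposited table. CRIM1, a transmembrane protein that binds BMPs, had 165.2, 219.3 and 176.3 CPM against 115.2, 123.5 and 89.0 CPM (-0.78, quasi-likelihood adjusted p = 0.133). DESeq2 gave CRIM1 an adjusted p of 0.0498, and the authors' deposited table one of 0.0936.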

How the data were processed

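Gene expression was measured by SMART-Seq2 in 6 libraries of MiaPaCa2 clones, grouped by the sample titles. Per the file headers, the authors deposited a table of counts for each gene symbol, a TPM table for part of the genes, and an edgeR result for that part: log2 fold change, likelihood ratio score, p-value and FDR. The submitters' processing notes name TopHat2 2.1.0, HTSeq 0.6.1 and edgeR 3.2.2 with builds hg19 and GRCh37. Strand setting, annotation, filter and gene lengths: not given in the sources used here.

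Counts went into edgeR 4.0.16 (R 4.3.3) over the whole table: filterByExpr (minimum count 10, total 15; 13659 genes), TMM scaling, glmQLFit and a two-sided glmQLFTest on the group. P-values were adjusted by Benjamini-Hochberg across every tested gene, with 0.05 as threshold. The SE was derived from the F statistic, and 95% intervals use the 4 residual and 4.35 prior degrees of freedom. DESeq2 1.42.0 and limma 3.58.1 served as alternatives, and the fit was tested on simulated data. Replicates are separate clones with 1 library each, and nothing used here says which were cultured or prepared together. The p-values rest on the spread between these libraries, in which clone, culture and preparation cannot be told apart. Libraries of a group differed far beyond counting noise (chi-square per gene of at least 117).

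Members and lists were chosen with earlier results of these data known. Full values went to members past the threshold, with an unadjusted p below 0.05, or with no overlap and at least 5 CPM on average in the higher group, and to up to 4 other pathway genes in each direction with the smallest p below 0.05 and no overlap. Other members are given by level and range, and a gene that this rule also picks is not reported here. Promoter sequences are from RefSeq in GRCh38.p14, matched by symbol for 38 of 42 members, and were not set against coordinates of the authors' build.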

Additional observations from a re-analysis of the deposited data

How the results depend on the processing

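The count of members called, 0 with the quasi-likelihood test (7 at an unadjusted p below 0.05), was 1 without a filter on low counts, 2 with DESeq2, 3 with the exact test or the likelihood ratio test of edgeR, and 1 with limma on log2(TPM + 1) or log2(TPM + 0.1) of genes with a mean of at least 1 TPM. It was 0 under the other scalings, a filter of 1 CPM in 3 libraries, robust estimation, limma-voom, unfiltered TPM, and without each library in turn. The count of other pathway genes called, 1 in the quasi-likelihood test, was 6 without a filter, 12 with DESeq2, 11 with the exact or likelihood ratio test, 3 with limma on log2(TPM + 1) or log2(TPM + 0.1), 2 with unfiltered TPM, and 0 to 1 without 1 library. With the replicate number as a block (replicate block), 0 members and 0 other pathway genes were called, COL1A2 having an adjusted p of 0.0698. The numbers are not shown to pair the clones, since deviations of same-numbered clones correlated at 0.02, 0.01 and 0.22, and WT replicates 1 and 2 each correlated better with a clone of another number. No gene given here with full statistics (SKIL, TGFBR3 and the others chosen by the rule) changed direction under any alternative run. Of all 32 tested members, 13 took the other sign in at least 1 alternative: LTBP2, LTBP3, NOG, FSTL1, TGFBR1, BMPR2, SMAD2, SMAD4, SMAD5, SMAD6, SMURF2, TGIF1 and TGFBI. The median of all genes shifted from -0.01 to 0.14 with library size alone and to between 0.20 and 0.27 on the TPM scales, which moved the median of the 5 signal-carrying SMADs from -0.09 to 0.05 and 0.15. Without ZEB1-KO replicate 2 the median of the members was -0.10. Counts were low for the 10 untested members, and for SMAD6, SMAD7, TGFB3, LTBP1 and LTBP3, whose lowest libraries held 2 to 17 counts. Whether depth or low expression lay behind these counts was not tested.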

Other observations

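Clones of the same group differed widely in several members, chosen here after their values were seen. Among the 3 WT clones, TGFBI differed 18.1-fold between its highest and lowest CPM, BAMBI 12.5-fold, FSTL1 8.95-fold, SMAD6 6.97-fold and PMEPA1 5.05-fold. WT replicate 1 was the lowest of its group for BAMBI, FSTL1 and PMEPA1 and the highest for TGFBI and SMAD6. The signal carriers SMAD1 and SMAD4 and the receptor ACVR1B differed 1.08-fold, 1.11-fold and 1.10-fold among the same clones. Among the ZEB1-KO clones, SMAD6 differed 26.2-fold, with 2 counts in its lowest library and 66 in its highest. BAMBI differed 7.38-fold, SMAD7 5.51-fold and PMEPA1 4.01-fold among them, while ACVR2A differed 1.09-fold and BMP7 1.14-fold. The median SD of log2(CPM + 0.1) over the 32 tested members was 0.41 in WT and 0.45 in ZEB1-KO clones, against 0.32 and 0.37 over all tested genes, whose levels were not matched.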
